A study of Homo sapiens with 9 samples.

Results

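The collagen genes were taken as the protein-coding genes whose symbol is COL, a number, A and a number, from COL1A1 to COL28A1. The rule found 44 genes among 60683 gene IDs, of which 19910 were protein-coding. By textbook role they were placed in 7 classes: 11 fibrillar chains, 8 basement membrane chains, 10 fibril-associated chains with interrupted helices (FACIT), 4 transmembrane chains, 5 collagen VI chains, 3 short-chain collagens and 3 remaining genes (COL7A1, COL26A1 and COL28A1). The 9 RNA libraries came from HEK293T, a long-established cell line of human embryonic kidney origin: 3 of parental cells, 3 of clone 15 and 3 of clone 37. The parental cells were the line into which reporters were later inserted. Both clones came from single sorted cells after the piggyBac transposon had inserted a reporter of 60 CAG units ahead of Myc and NLuc (NanoLuc luciferase) together with a reporter of 0 CAG units ahead of Myc and FLuc (firefly luciferase). Per the labels, both inserts were expressed at a low level in clone 15 and at a high level in clone 37. Each level was represented by 1 clone, so reporter level cannot be told apart from any other difference between single-cell clones. The labels list no compound treatment for these samples, and all cells were kept in DMEM with fetal bovine serum.

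Collagens are secreted or membrane-bound proteins whose chains wind into a helix and assemble into the extracellular matrix. Fibrillar collagens form the banded fibrils of connective tissue, collagen IV forms the mesh of basement membranes, FACIT collagens coat fibrils, and collagen VI forms beaded filaments around cells. Kidney epithelia rest on a basement membrane in which collagen IV chains are the main collagen, whereas fibrillar collagens I and III are typical products of fibroblasts and other mesenchymal cells.

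Gene counts summed to between 10334090 and 38093340 per library. The clone 15 libraries were the deepest and were read at 100 bp, the others at 75 bp, so read length and depth cannot be told apart from clone 15. They also stood apart in the share of read pairs that mapped to several places, 4.59% to 5.98% against 10.4% to 14.0% in the other 6 libraries, and in pairs that fell in no gene, 33.7% to 34.6% against 19.2% to 29.9%. The part of these differences in the clone 15 values was not tested. The labels do not say whether replicates came from separate cultures, so p-values measure only the spread between these libraries, which may be technical. All 8 HEK293T markers were detected in every library. They summed to 1339 to 1635 CPM in parental, 4100 to 4258 CPM in clone 15 and 828 to 895 CPM in clone 37 (CPM, counts scaled by the library's summed gene counts). Of the 8, NEFM, a neurofilament chain, had the largest fitted change in each clone, with means of 559, 2728 and 137 CPM in parental, clone 15 and clone 37. Against parental, 5 of the 8 were called lower and 1 higher in clone 37, and 2 lower and 3 higher in clone 15, by the test used for the collagens, where 54.0% and 51.4% of all genes were called. The part of this shift in the collagen values was not tested. Among 6 endothelial markers CLDN5 was at 0 throughout, and the summed level was at most 0.833 CPM in parental, 3.02 CPM in clone 15 and 1.26 CPM in clone 37. The 8 fibroblast markers summed to 25.7 to 26.8 CPM in parental, 16.0 to 22.6 CPM in clone 15 and 15.4 to 17.0 CPM in clone 37. Clone 15 replicate 3, with 22.6 CPM, stood apart from the other clone 15 libraries at 16.0 and 16.1 CPM, and this library also stood apart for COL1A1, COL1A2 and COL3A1. In bulk RNA, fewer cells of a type and less RNA per cell cannot be told apart.

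Summed over the 44 genes, the collagen level was lower in both clones than in parental cells. Parental libraries averaged 1154 ± 45.1 CPM (SD, n = 3), clone 15 libraries 892 ± 84.7 CPM and clone 37 libraries 773 ± 27.8 CPM. No library of either clone reached the lowest parental library, at 1112 CPM. Basement membrane chains had the largest difference in CPM of the 7 classes in both clones: they summed to 486 ± 6.96 CPM in parental, 317 ± 12.8 CPM in clone 15 and 279 ± 5.93 CPM in clone 37. Collagen VI summed to 232 ± 11.9 CPM in parental, 147 ± 17.6 CPM in clone 15 and 174 ± 7.69 CPM in clone 37, and had the second largest fall in CPM in clone 15. Fibrillar chains summed to 280 ± 17.2 CPM in parental and 179 ± 9.10 CPM in clone 37, the second largest fall in CPM there, whereas the clone 15 libraries ranged from 244 to 372 CPM and overlapped the parental range. Without COL1A1, COL1A2 and COL3A1, the fibrillar sum in clone 15 was 200 ± 12.7 CPM, against 232 ± 15.8 CPM in parental and 159 ± 8.20 CPM in clone 37. These sums describe the libraries and were not tested.

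**Figure D1:**
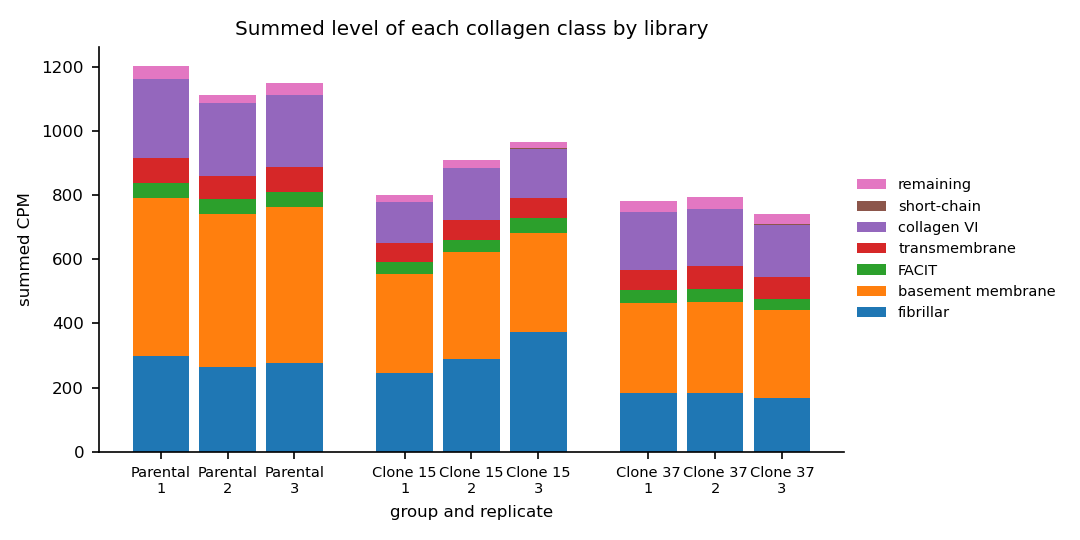
Summed CPM (y axis) of each collagen class, stacked as bars, for every library (x axis: group and replicate). Parental libraries sum to 1112 to 1202 CPM, clone 15 to 800 to 967 CPM and clone 37 to 741 to 794 CPM; the fibrillar part is tallest in clone 15 replicate 3 at 372 CPM.

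At a mean of at least 1 CPM, 29 of the 44 genes were present in parental, 32 in clone 15 and 27 in clone 37. Levels of different genes were compared per kilobase of exon (RPKM, computed from the counts and the GENCODE 29 exon length). In parental cells COL6A1 was highest at 28.2 RPKM, followed by COL6A2 at 14.9, COL18A1 at 12.4, COL4A5 at 11.4 and COL2A1 at 9.80 RPKM. In clone 37 COL4A5 stood at 3.83 RPKM, below COL6A1 at 22.9, COL18A1 at 11.8, COL6A2 at 9.40 and COL2A1 at 6.49 RPKM. In clone 15 the leading genes were COL6A1 at 16.1, COL2A1 at 12.6, COL6A2 at 10.3 and COL18A1 at 9.36 RPKM. The classical fibrillar genes of fibroblasts were low per length in parental cells, with COL1A1 at 3.50 RPKM, COL3A1 at 1.98 RPKM and COL1A2 at 0.

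Each pair of groups was tested over all genes with edgeR's quasi-likelihood test, and a gene was called at a Benjamini-Hochberg adjusted p under 0.05. Against parental, 29 collagen genes passed the filter on low counts in clone 37, of which 17 were called lower, 2 were called higher and 10 were not called. Over all genes tested in that comparison, 54.0% were called, 27.3% lower and 26.7% higher. The median log2 fold change of the 29 was -0.38, against 0.02 for all genes tested. In clone 15 against parental 33 were tested, with 17 called lower, 2 called higher and 14 not called, where 51.4% of all genes were called, 26.2% lower and 25.1% higher. Their median was -0.43, against 0.02 for all genes. The clone comparisons share the parental libraries, so an error in those libraries would enter both.

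Between the clones, clone 37 against clone 15, 32 were tested, with 11 called higher in clone 37, 8 called lower and 13 not called. All genes in this comparison gave 57.7% called, 28.7% higher and 29.0% lower. Some members passed the filter only through the group in which they were high, and had to differ: COL3A1, COL11A1 and COL21A1 in clone 37 against parental, COL1A2, COL11A1, COL6A3 and COL8A1 in clone 15 against parental, and COL1A2, COL3A1, COL6A3, COL6A6 and COL8A1 between the clones.

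Leaving out 1 library at a time, the count called higher ran from 1 to 3 genes in clone 37 and from 1 to 5 in clone 15. In clone 15 it was 4 without replicate 3 and 5 without replicate 1, and it was 1 without any 1 parental library. The DESeq2 Wald test gave 1 in clone 37 and 5 in clone 15, and unstranded counts gave 6 in clone 15. The count called lower ran from 16 to 18 in clone 37 and from 16 to 19 in clone 15 over all alternatives. Between the clones, the count lower in clone 37 was 8 with every library. It was 5 without clone 37 replicate 2 or without clone 37 replicate 3, and rose above 8 without another library.

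**Figure D2:**
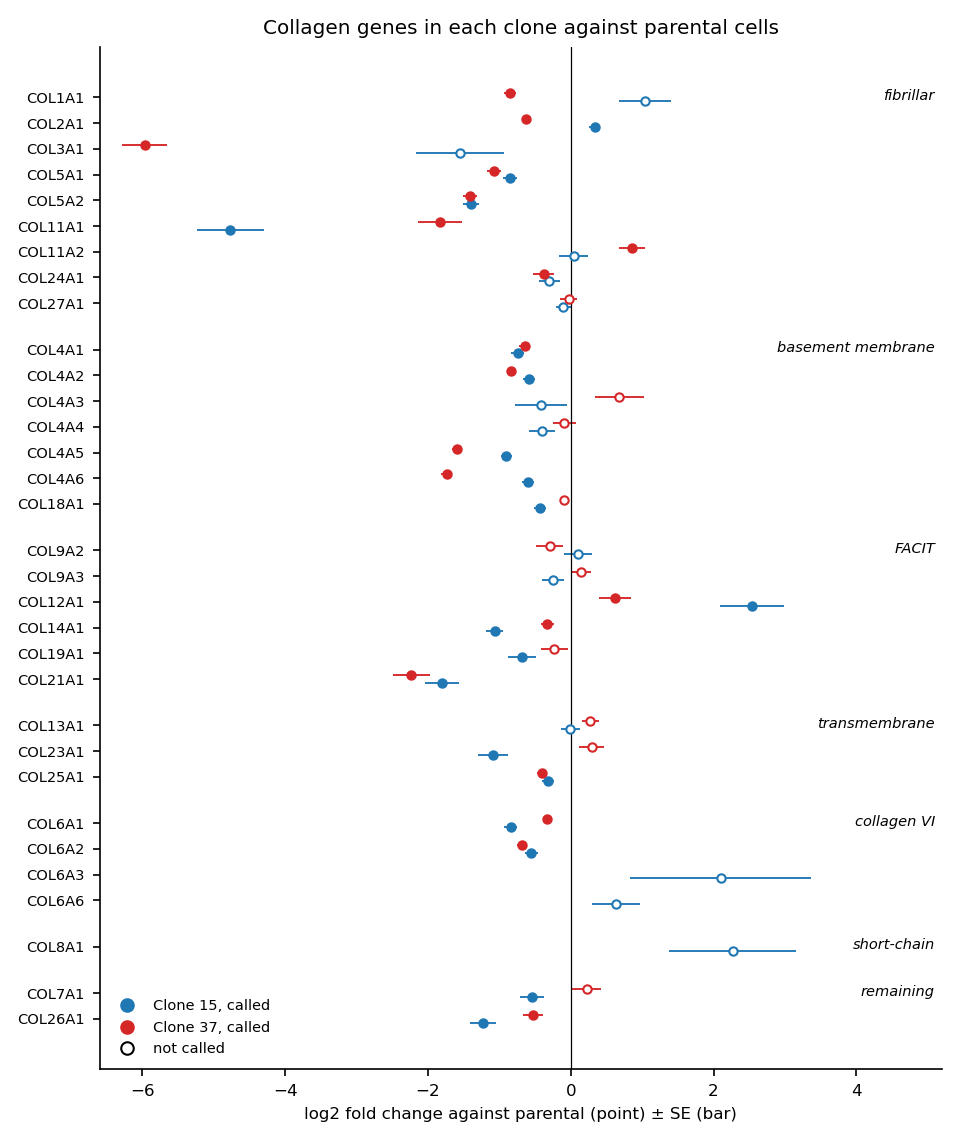
Fitted log2 fold change against parental (x axis) with its SE (bars) for each tested collagen gene (y axis, by class), clone 15 in blue and clone 37 in red; filled points are called at an adjusted p under 0.05. COL1A2, at 0 in all parental libraries, has no point; the lowest points are COL3A1 in clone 37 at -5.97 and COL11A1 in clone 15 at -4.77.

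Among the fibrillar chains, 7 of 9 tested were called lower in clone 37 and COL11A2 was called higher. In clone 15, 3 of 10 tested were called lower (COL5A1, COL5A2 and COL11A1) and COL2A1 was called higher. In clone 37 the 77.8% called lower stood beside 27.3% of all genes. In clone 15 the share called lower, 3 of 10, was near the 26.2% of all genes. The 40% called there in either direction was below their 51.4%. COL3A1 and COL11A1 in clone 37, and COL11A1 in clone 15, passed the filter only through parental and had to be lower. The shares called lower therefore rest in part on the filter. COL1A1 (ENSG00000108821, GRCh38 chromosome 17, 50183289 to 50201632) encodes the main chain of collagen I. It stood at 34.8, 32.9 and 35.5 CPM in parental, 48.3, 61.4 and 108 CPM in clone 15, and 20.7, 19.3 and 18.4 CPM in clone 37. The 3 groups did not overlap: every clone 37 library lay below every parental library and every clone 15 library above. In clone 37 COL1A1 fell 1.80-fold (log2 fold change -0.85, SE 0.08, adjusted p = 1.89e-07), a call that a fit of all 9 libraries ended (adjusted p = 0.0968). The clone 15 value of 1.04 (SE 0.37) did not pass at an adjusted p of 0.0799, whereas DESeq2 (1.05, adjusted p = 0.0112) and a fit of all 9 libraries (1.04, adjusted p = 0.0285) called it. Without clone 15 replicate 1 it was 1.29 at an adjusted p of 0.0104. Without clone 15 replicate 3, the library at 108 CPM, it was 0.66 at an adjusted p of 2.57e-05. The direct difference between the clones was -1.88 (SE 0.42, adjusted p = 0.0193), and it missed the threshold without any 1 clone 37 library, at -1.92, -1.86 and -1.85.

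COL1A2 (ENSG00000164692, chromosome 7, 94394561 to 94431232) encodes the partner chain of COL1A1 in collagen I. It had 0 counts in each of the 6 parental and clone 37 libraries. The clone 15 libraries held 213, 300 and 1059 counts, or 5.59, 12.2 and 56.8 CPM. Against a floor of 3 counts in each library, the clone 15 mean was at least 103-fold higher than parental and at least 92.4-fold higher than clone 37. For the lowest clone 15 library alone these bounds were 23.2-fold and 20.8-fold. The clone 15 libraries differed 10.2-fold among themselves, and neither comparison was called (adjusted p = 0.171 against parental and 0.195 between the clones). Without clone 15 replicate 3 both were called, at adjusted p of 0.000934 and 0.0129, and DESeq2 called both with all libraries.

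COL3A1 (ENSG00000168542, chromosome 2, 188974320 to 189012746) encodes collagen III. Its drop in clone 37 was known from earlier results of these data. It stood at 14.5, 13.5 and 12.4 CPM in parental, 2.36, 3.05 and 9.49 CPM in clone 15, and 0, 0.39 and 0.24 CPM in clone 37. The groups did not overlap, and clone 15 lay between parental and clone 37 in every library. COL3A1 passed the filter only through parental in clone 37 and only through clone 15 between the clones, and had to differ in both. In clone 37 the fitted log2 fold change was -5.97 (SE 0.31, adjusted p = 6.46e-11). With so few counts in clone 37 this value moved with the library left out, to -6.61 without clone 37 replicate 2 and -5.42 without clone 37 replicate 1. In clone 15 it was -1.55 (SE 0.61) and did not pass (adjusted p = 0.103), whereas DESeq2 (adjusted p = 0.0403), a fit of all 9 libraries (adjusted p = 0.0454) and thinning to equal totals (adjusted p = 0.0300) called it. Without clone 15 replicate 3 it was -2.34 at an adjusted p of 1.72e-09. The difference between the clones was -4.46 (SE 1.30, adjusted p = 0.0423), a call lost without any 1 clone 37 library or without clone 15 replicate 2 (-3.90 to -5.12), and also with no filter on low counts or with GC and length trends removed. Without clone 15 replicate 3 it was -3.65 and was called.

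**Figure D3:**
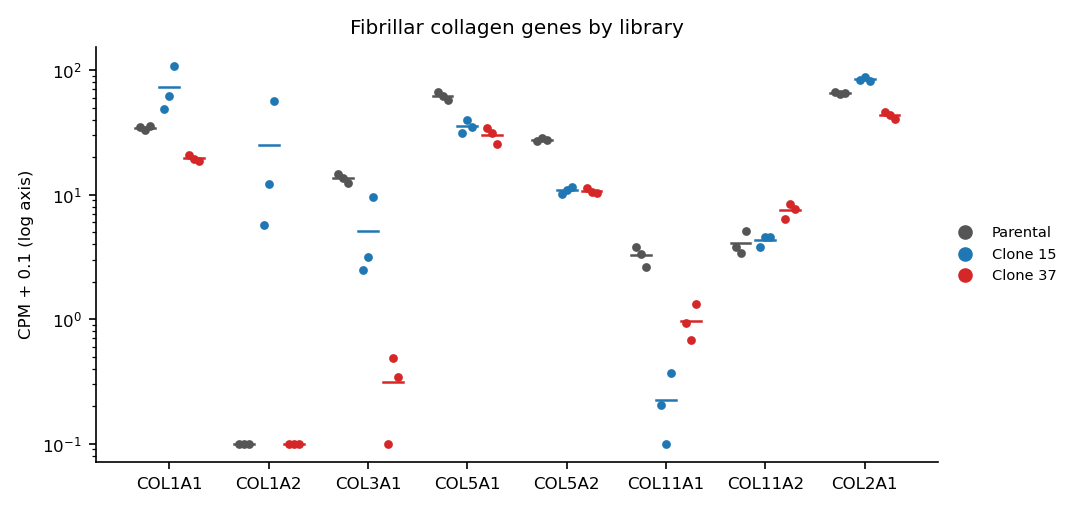
CPM + 0.1 on a log axis (y) of 8 fibrillar collagen genes (x) in each library (points) with the group mean (line), for parental (grey), clone 15 (blue) and clone 37 (red). COL1A2 is at 0 in all parental and clone 37 libraries, which plot at the added 0.1, and clone 15 replicate 3 is the highest point for COL1A1, COL1A2 and, among clone 15 libraries, COL3A1.

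Collagen V regulates the diameter of collagen I fibrils, and both of its chains at more than trace level were lower in each clone. COL5A1 (chromosome 9, 134641774 to 134844843) measured 66.9, 62.3 and 57.3 CPM in parental, 31.1, 39.9 and 35.1 CPM in clone 15, and 34.0, 31.0 and 25.3 CPM in clone 37. COL5A2 (chromosome 2, 189031896 to 189225312) measured 26.6, 28.5 and 27.5 CPM in parental, 10.0, 10.8 and 11.5 CPM in clone 15, and 11.1, 10.5 and 10.2 CPM in clone 37. For both genes all 6 clone libraries lay below the parental libraries, and the clones overlapped each other. For COL5A1 the log2 fold change in clone 37 was -1.08 (SE 0.09, adjusted p = 8.23e-08), while clone 15 gave -0.85 (SE 0.10, adjusted p = 7.13e-08). For COL5A2 clone 37 gave -1.41 (SE 0.10, adjusted p = 2.34e-09), and clone 15 gave -1.39 (SE 0.11, adjusted p = 2.13e-10). Between the clones COL5A2 differed by -0.01 (SE 0.12, adjusted p = 0.930). COL5A1 differed by -0.23 (adjusted p = 0.0534) and was called in 6 alternatives, at -0.22 to -0.32. COL5A3, the remaining chain of collagen V, was at most 0.274 CPM in any library. COL5A2 and COL3A1 lie tail to tail on chromosome 2 with 19.15 kb between them, yet their fitted changes in clone 37 were -1.41 and -5.97.

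Collagen XI nucleates fibrils and is typical of cartilage, where it co-assembles with collagen II. COL11A1 (chromosome 1, 102876467 to 103108872) had 3.70, 3.24 and 2.53 CPM in parental, 0.105, 0 and 0.268 CPM in clone 15, and 0.822, 0.581 and 1.21 CPM in clone 37. The groups were separate, with clone 15 lowest. On the log2 scale COL11A1 fell by 4.77 (SE 0.47, adjusted p = 8.57e-09) in clone 15. In clone 37 it fell by 1.83 (SE 0.31, adjusted p = 8.48e-05). Both calls held in every alternative that was run, but their size moved: with unstranded counts the clone 37 value was -0.91 and the clone 15 value -4.18, and clone 15 gave -5.52 without its replicate 3 and -5.45 after thinning to equal totals. The clones were too low for a test against each other. This was the largest called fall in clone 15 among the members, and the 250 bases ahead of its RefSeq start are shown with matches to CCAAT or GGGCGG on either strand in capitals (GRCh38.p14, chr1:103108523-103108772, minus strand).
COL11A1: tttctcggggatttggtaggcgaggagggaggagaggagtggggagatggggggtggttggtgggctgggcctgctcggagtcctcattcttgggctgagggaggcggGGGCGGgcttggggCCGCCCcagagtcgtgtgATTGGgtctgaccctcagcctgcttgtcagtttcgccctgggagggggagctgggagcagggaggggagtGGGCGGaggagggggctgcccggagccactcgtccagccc
The window held 1 match to CCAAT (32.0% of all 35116 RefSeq promoter windows of this length held one), 3 to GGGCGG (42.6%) and 0 to TATAAA (10.7%). No matches overlapped, and a match is a description of letters only.

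COL11A2, the partner chain, was called higher in clone 37. It measured 3.70, 3.31 and 4.98 CPM in parental, 3.73, 4.47 and 4.45 CPM in clone 15, and 6.30, 8.32 and 7.53 CPM in clone 37. All clone 37 libraries were above the other 6. It was 1.81-fold higher in clone 37 (log2 fold change 0.86, SE 0.19, adjusted p = 0.000836), and in clone 15 the value was 0.04 (SE 0.20, adjusted p = 0.891). The difference between the clones was 0.82 (SE 0.16, adjusted p = 8.82e-05).

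COL2A1, the chain of cartilage collagen II, was the member called in opposite directions. It had 66.6, 63.9 and 65.3 CPM in parental, 82.9, 88.1 and 81.4 CPM in clone 15, and 45.7, 43.4 and 40.6 CPM in clone 37. The groups did not overlap and differed by more than their spread of at most 3.52 CPM (SD). The log2 fold change in clone 37 was -0.62 (SE 0.07, adjusted p = 6.14e-07). Clone 15 gave 0.34 (SE 0.08, adjusted p = 0.000910). Between the clones it was -0.96 (SE 0.07, adjusted p = 8.85e-13). COL24A1 fell by 0.38 (SE 0.14, adjusted p = 0.0343) in clone 37, a call that 6 alternatives ended, among them DESeq2 and leaving out either of clone 37 replicates 2 and 3 or of parental replicates 1 and 3. COL27A1 was not called in any comparison, with means (SD, n = 3) of 59.9 ± 11.9 CPM for parental, 56.7 ± 4.85 CPM for clone 15 and 59.4 ± 3.71 CPM for clone 37. Without parental replicate 2, its lowest library at 47.3 CPM, it was called lower in both clones (-0.18 and -0.23).

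Of the basement membrane chains, the same 4 collagen IV genes were called lower in both clones. In clone 37, 4 of 7 tested were called lower (COL4A1, COL4A2, COL4A5 and COL4A6) and none higher. In clone 15, 5 of 7 were called lower, these 4 and COL18A1. The shares called lower, 57.1% and 71.4%, stood beside 27.3% and 26.2% of all genes, and the shares called in either direction were the same 57.1% and 71.4% beside 54.0% and 51.4% of all genes. COL4A5 (ENSG00000188153, chromosome X, 108439844 to 108697545), a chain of the mature kidney glomerular basement membrane, measured 139, 125 and 143 CPM in parental, 75.3, 71.6 and 74.4 CPM in clone 15, and 43.4, 47.1 and 46.0 CPM in clone 37. COL4A6 (ENSG00000197565, chromosome X, 108155607 to 108439497), its neighbour, measured 63.4, 54.0 and 58.6 CPM in parental, 39.1, 39.4 and 39.6 CPM in clone 15, and 17.8, 17.4 and 18.3 CPM in clone 37. Both genes stepped down from parental to clone 15 to clone 37 with no overlap of libraries.

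COL4A5 fell 3.03-fold in clone 37 (log2 fold change -1.60, SE 0.06, adjusted p = 1.92e-12) and 1.87-fold in clone 15 (-0.90, SE 0.08, adjusted p = 5.50e-10). COL4A6 fell 3.34-fold in clone 37 (-1.74, SE 0.08, adjusted p = 1.29e-11) and 1.52-fold in clone 15 (-0.60, SE 0.09, adjusted p = 1.84e-06). Clone 37 was below clone 15 by 0.69 on the log2 scale for COL4A5 (SE 0.07, adjusted p = 6.18e-10) and by 1.14 for COL4A6 (SE 0.08, adjusted p = 1.85e-12). Each of these calls held in every alternative that was run. Per kilobase, COL4A6 stood to COL4A5 at 0.554 ± 0.030 (SD, n = 3) in parental libraries, 0.682 ± 0.020 in those of clone 15 and 0.502 ± 0.027 in those of clone 37. The clone 15 ratios lay above all others (exact permutation test, two-sided p = 0.1 against either group, the smallest that 3 against 3 can give). The clone 37 and parental ratios overlapped (exact permutation p = 0.2).

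The chains of collagen IV lie in head-to-head pairs that are transcribed away from each other. The RefSeq starts of COL4A6 and COL4A5 were 380 bases apart, those of COL4A1 and COL4A2 127 bases and those of COL4A4 and COL4A3 419 bases. For COL4A6 and COL4A5 the 250 bases ahead of the COL4A5 start are shown, which leaves out the part of the gap nearest COL4A6, and for COL4A4 and COL4A3 the 111 bases of the gap outside GENCODE 29 exons. They are shown because such a gap lies upstream of both genes of a pair, with CCAAT or GGGCGG on either strand in capitals (GRCh38.p14, plus strand, chrX:108439588-108439837 for the first and chr2:227164454-227164564 for the second).
COL4A6 and COL4A5: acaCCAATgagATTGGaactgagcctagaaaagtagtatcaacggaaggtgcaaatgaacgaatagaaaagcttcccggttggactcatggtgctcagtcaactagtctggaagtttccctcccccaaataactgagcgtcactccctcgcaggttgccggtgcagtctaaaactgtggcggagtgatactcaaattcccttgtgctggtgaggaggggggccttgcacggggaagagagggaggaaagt
COL4A4 and COL4A3: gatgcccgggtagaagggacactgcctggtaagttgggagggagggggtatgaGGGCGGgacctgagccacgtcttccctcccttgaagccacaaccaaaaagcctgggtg
The 250 bases of the COL4A6 and COL4A5 gap held 2 matches to CCAAT and 0 to GGGCGG. The 111 bases of the COL4A4 and COL4A3 gap held 0 to CCAAT and 1 to GGGCGG, where 18.6% and 26.6% of all windows of its length of 111 bases held one, and neither window held TATAAA (3.92% of windows of 111 bases). COL4A1 and COL4A2, also lower in both clones, overlap at their starts in GENCODE 29, and their gap was not searched.

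COL4A1 and COL4A2 encode the chains found in nearly all basement membranes. COL4A1 (chromosome 13, 110148963 to 110307233) measured 55.8, 65.5 and 55.9 CPM in parental, 36.5, 37.7 and 34.1 CPM in clone 15, and 38.8, 40.4 and 36.6 CPM in clone 37. COL4A2 (chromosome 13, 110305812 to 110513209) measured 120, 124 and 117 CPM in parental, 78.5, 85.9 and 81.8 CPM in clone 15, and 69.2, 70.7 and 65.7 CPM in clone 37. Every clone library lay below every parental library for both genes. On the log2 scale COL4A1 fell by 0.64 (SE 0.08, adjusted p = 3.19e-06) in clone 37. Its value in clone 15 was -0.74 (SE 0.09, adjusted p = 3.98e-07). COL4A2 fell by 0.84 (SE 0.06, adjusted p = 2.95e-09) in the former, and its value in the latter was -0.58 (SE 0.08, adjusted p = 1.02e-06). Between the clones COL4A2 was lower in clone 37 by 0.26 (adjusted p = 0.000769), a call that ended when per-library trends in GC content and length were removed (-0.05). In that fit COL4A1 was called higher in clone 37 (0.32), against 0.10 and no call otherwise.

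COL4A3 and COL4A4 encode partners of COL4A5 in the glomerulus and had the lowest levels of the 6 collagen IV genes. COL4A3 (chromosome 2, 227164565 to 227314792) had 1.11, 0.863 and 2.30 CPM in parental, 1.42, 0.934 and 0.804 CPM in clone 15, and 2.47, 2.90 and 1.70 CPM in clone 37. Parental libraries overlapped both clones, and neither clone was called against parental (0.68, adjusted p = 0.105 in clone 37 and -0.42, adjusted p = 0.352 in clone 15). Clone 37 was 2.13-fold above clone 15 (log2 fold change 1.09, SE 0.30, adjusted p = 0.00251). Without parental replicate 3 the clone 37 value was 1.18 and passed. COL4A4 had means of 5.67 ± 0.263, 4.39 ± 0.697 and 5.44 ± 0.190 CPM (SD, n = 3) for parental, clone 15 and clone 37 and was not called in any comparison. It was called lower in clone 15 than in parental in 3 alternatives, at -0.40 in a fit of all 9 libraries, -0.45 with GC and length trends removed and -0.51 without clone 15 replicate 2. Between the clones those last alternatives also called it, at 0.44 and 0.42.

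**Figure D4:**
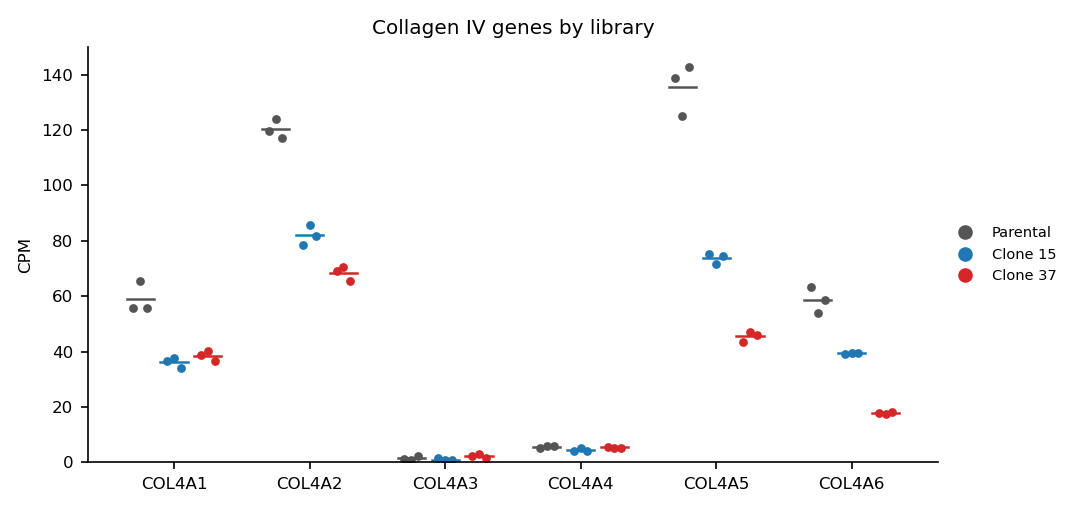
CPM (y axis, linear) of the 6 collagen IV genes (x axis) in each library (points) with the group mean (line), for parental (grey), clone 15 (blue) and clone 37 (red). COL4A5 and COL4A6 step down from parental to clone 15 to clone 37, COL4A1 and COL4A2 are lower in both clones, and COL4A3 and COL4A4 stay under 6 CPM in every library.

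COL18A1, whose C-terminal fragment is endostatin, was called lower in clone 15. It measured 109, 104 and 103 CPM in parental, 75.4, 90.5 and 73.5 CPM in clone 15, and 102, 100.1 and 98.6 CPM in clone 37. It fell by 0.43 (SE 0.08, adjusted p = 0.000127) in clone 15, while the clone 37 value was -0.10 (adjusted p = 0.154). The direct difference was 0.33 in favour of clone 37 (SE 0.07, adjusted p = 8.68e-05). COL15A1 was at most 0.536 CPM in any library and was not tested.

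Outside these classes, 6 of 13 tested were called lower and 1 higher in clone 37, and 9 of 16 were called lower and 1 higher in clone 15. Between the clones 8 of 16 were called higher and 2 lower in clone 37. In these classes 53.8% of those tested were thus called in clone 37, near the 54.0% of all genes, and 62.5% in clone 15 and between the clones, against 51.4% and 57.7% of all genes. COL12A1 (ENSG00000111799, chromosome 6, 75084326 to 75206051), a FACIT chain that binds collagen I fibrils, was the gene called higher in each clone. It measured 2.13, 2.09 and 2.30 CPM in parental, 9.45, 9.14 and 20.9 CPM in clone 15, and 3.29, 3.68 and 3.24 CPM in clone 37. The groups did not overlap, and clone 15 replicate 3 was again the highest library. In clone 15 COL12A1 rose 5.82-fold (log2 fold change 2.54, SE 0.45, adjusted p = 0.00381). Without clone 15 replicate 3 it was 2.08 at an adjusted p of 4.01e-08. The clone 15 call was lost without any 1 parental library, with adjusted p between 0.0546 and 0.0606.

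In clone 37 the COL12A1 value was 0.62 (SE 0.22, adjusted p = 0.0258), and 9 alternatives ended the call, DESeq2 at an adjusted p of 0.105 among them, as did leaving out any 1 clone 37 library or parental replicate 1 or 3. Clone 37 was below clone 15 by 1.91 (SE 0.52, adjusted p = 0.0321), a call lost without any 1 clone 37 library or with no filter on low counts. The 250 bases ahead of its start are shown because this was the largest called rise among the members (GRCh38.p14, chr6:75206054-75206303, minus strand, capitals as before).
COL12A1: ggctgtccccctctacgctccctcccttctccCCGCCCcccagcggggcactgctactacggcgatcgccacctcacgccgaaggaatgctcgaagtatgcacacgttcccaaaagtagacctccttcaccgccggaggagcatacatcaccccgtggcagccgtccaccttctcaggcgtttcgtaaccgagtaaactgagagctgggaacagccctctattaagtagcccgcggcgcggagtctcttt
They held 1 match to GGGCGG and 0 to CCAAT or TATAAA.

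The FACIT genes COL14A1 and COL21A1 went the other way. COL14A1 measured 20.5, 20.2 and 20.5 CPM in parental, 9.87, 9.95 and 10.1 CPM in clone 15, and 17.6, 16.8 and 15.3 CPM in clone 37. It was 2.09-fold lower in clone 15 (log2 fold change -1.07, SE 0.12, adjusted p = 3.85e-08) and 1.25-fold lower in clone 37 (-0.33, SE 0.10, adjusted p = 0.00765). COL21A1 (chromosome 6, 56056590 to 56394094) measured 4.81, 4.39 and 4.98 CPM in parental, 1.5, 1.26 and 1.34 CPM in clone 15, and 1.19, 1.16 and 0.729 CPM in clone 37. All clone libraries lay under the lowest parental library in both genes. On the log2 scale COL21A1 fell by 2.23 (SE 0.25, adjusted p = 1.05e-06) in clone 37, where it passed the filter only through parental. It fell by 1.80 (SE 0.24, adjusted p = 6.14e-07) in clone 15, and the clones did not pass against each other (-0.43, adjusted p = 0.258). Of the collagen IX chains, COL9A2 was not called in any comparison and COL9A3 was called between the clones alone (0.40, adjusted p = 0.0107), a call lost on thinning and without clone 37 replicate 1. COL19A1, at 4.75 ± 0.433 CPM in parental (SD, n = 3), fell by 0.68 in clone 15 (adjusted p = 0.00627). COL9A1, COL16A1, COL20A1 and COL22A1 were not tested.

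Among transmembrane collagens, COL23A1 (chromosome 5, 178237618 to 178590555) measured 5.09, 6.83 and 5.66 CPM in parental, 2.36, 3.45 and 2.79 CPM in clone 15, and 6.94, 9.0 and 6.31 CPM in clone 37. Clone 15 lay below all other libraries, and clone 37 overlapped parental. It was 2.12-fold lower in clone 15 (log2 fold change -1.08, SE 0.21, adjusted p = 0.000112) and 2.61-fold higher in clone 37 than in clone 15 (1.38, SE 0.19, adjusted p = 3.09e-07). COL25A1, a neuronal collagen also found in amyloid plaques, averaged 58.3 ± 3.10 CPM (SD, n = 3) in parental libraries, 47.6 ± 0.442 CPM for clone 15 and 45.0 ± 3.12 CPM for clone 37. It fell by 0.40 (adjusted p = 0.000136) in clone 37 and by 0.32 (adjusted p = 0.00203) in clone 15, and removing GC and length trends ended the clone 15 call (-0.16). COL13A1 was not called against parental and was 0.28 higher in clone 37 than in clone 15 (adjusted p = 0.0284), a call that 5 alternatives ended, among them DESeq2 and leaving out clone 15 replicate 1 or clone 37 replicate 2 or 3. COL17A1 was at most 0.185 CPM.

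Collagen VI is built from COL6A1, COL6A2 and a further chain that is usually COL6A3. COL6A1 (chromosome 21, 45981737 to 46005050) measured 157, 146 and 149 CPM in parental, 75.3, 96.8 and 85.3 CPM in clone 15, and 126, 125 and 116 CPM in clone 37. COL6A2 (chromosome 21, 46098097 to 46132849) measured 87.1, 79.9 and 72.9 CPM in parental, 49.2, 60.7 and 57.1 CPM in clone 15, and 52.3, 51.8 and 47.8 CPM in clone 37. Both were below parental in every clone library. COL6A1 fell by 0.84 (SE 0.09, adjusted p = 1.07e-08) in clone 15. Its fall in clone 37 was smaller by value, at -0.33 (SE 0.06, adjusted p = 0.000103), and the difference of 0.52 between the clones passed (SE 0.07, adjusted p = 4.52e-07). COL6A2 was at -0.55 (SE 0.09, adjusted p = 1.58e-05) in clone 15. In clone 37 it was at -0.68 (SE 0.07, adjusted p = 5.34e-07), and the clones did not pass against each other (adjusted p = 0.137), although removing GC and length trends (-0.16) or leaving out clone 15 replicate 1 (-0.22) gave a call. Per kilobase, COL6A2 stood to COL6A1 at 0.527 ± 0.035 (SD, n = 3) in parental libraries, 0.645 ± 0.021 in those of clone 15 and 0.411 ± 0.0023 in those of clone 37. The ratios of the 3 groups did not overlap (exact permutation test, two-sided p = 0.1 for each pair, the smallest possible). COL6A3 had means of 0.680 ± 0.111, 3.23 ± 3.55 and 0.528 ± 0.131 CPM (SD, n = 3) for parental, clone 15 and clone 37. It was not called by the main fit in either comparison in which it was tested, and was not followed singly in the alternatives.

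COL6A6, a chain related to COL6A3, measured 1.02, 0.863 and 0.765 CPM in parental, 1.39, 1.34 and 1.45 CPM in clone 15, and 0.183, 0.097 and 0.081 CPM in clone 37. Its clone 37 libraries lay below the other 6. Clone 37 was 11.1-fold below clone 15 (log2 fold change -3.47, SE 0.51, adjusted p = 1.53e-06), and clone 37 and parental were too low for a test. COL6A6 passed the filter between the clones only through clone 15 and had to differ. With unstranded counts the difference between the clones was -1.34, still called. COL6A5 was at most 0.487 CPM.

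COL26A1 (chromosome 7, 101362820 to 101559024) measured 8.79, 8.85 and 8.65 CPM in parental, 4.31, 4.06 and 2.89 CPM in clone 15, and 6.76, 6.0 and 5.83 CPM in clone 37. The groups were separate, with clone 15 lowest. It was 2.35-fold lower in clone 15 (log2 fold change -1.23, SE 0.18, adjusted p = 2.37e-06) and 1.44-fold lower in clone 37 (-0.53, SE 0.14, adjusted p = 0.00486). COL7A1, which forms the anchoring fibrils of skin, measured 30.7, 16.5 and 26.2 CPM in parental, 15.9, 19.6 and 15.4 CPM in clone 15, and 29.6, 29.9 and 27.0 CPM in clone 37. Parental libraries overlapped both clones. It fell by 0.54 in clone 15 (SE 0.17, adjusted p = 0.0164), a call lost without clone 15 replicate 1 or 3 or with protein-coding genes alone (-0.50, adjusted p = 0.0502), and was 0.77 higher in clone 37 than in clone 15 (SE 0.10, adjusted p = 8.01e-08). COL28A1 and the short-chain genes COL8A2 and COL10A1 were at most 0.383 CPM. COL8A1 was not called in the main fits (adjusted p = 0.0681 in clone 15 and 0.151 between the clones), and was not followed singly in the alternatives. The 11 members tested in no comparison were at most 0.911 CPM in any library.

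The clone 15 libraries differed among themselves more in some collagen genes than in most genes. A ratio of at least 3 between the highest and the lowest library, with 0.1 CPM added, was used, a rule chosen after the values had been seen. Among 12980 protein-coding genes with a mean of at least 1 CPM in clone 15, 14 met it (0.108%), and 4 of these were collagen genes: COL1A2, COL6A3, COL8A1 and COL3A1. Clone 15 replicate 3 was the highest library in 12 of the 14. In parental cells, where 17 of 12939 genes met the rule, replicate 3 was the highest in 11, and in clone 37, where 6 of 12847 did, in 1. COL6A3 measured 0.709, 1.71 and 7.29 CPM and COL8A1 0.656, 1.22 and 4.07 CPM in replicates 1, 2 and 3. Neither parental nor clone 37 had a collagen gene that met the rule (0 in each).

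The other genes that met the rule in clone 15 included THBS1 (thrombospondin, a matrix glycoprotein) at 8.22, 8.57 and 55.2 CPM and TGFBI (a collagen-binding matrix protein) at 1.5, 1.95 and 10.2 CPM. GREM1, a secreted BMP antagonist, also met it. Of the 8 fibroblast markers, 7 were highest in replicate 3 among the clone 15 libraries. THY1 had 0.131, 0.244 and 1.23 CPM in clone 15 and 0 in the other 6 libraries, DCN had 0.158, 0.122 and 1.23 CPM, and FAP had 0.105, 0.041 and 0.375 CPM. PDGFRB had 0.446, 0.487 and 1.55 CPM and PDGFRA 4.07, 3.21 and 5.58 CPM. LUM was 0.394, 0.772 and 1.45 CPM in clone 15, against 1.73 to 2.41 CPM in parental, and was called lower (-1.43). ACTA2, the exception, was lowest in replicate 3, at 2.31 CPM, among the clone 15 libraries and was called lower in clone 15 than in parental (-1.30). TWIST1, the most abundant of the 8, measured 7.59, 8.41 and 8.85 CPM and was also called lower (-0.75). In clone 37 against parental, all 4 fibroblast markers that passed the filter were called lower, where 27.3% of all genes were. They were LUM (-2.35), PDGFRA (-1.20), ACTA2 (-0.90) and TWIST1 (-0.40). COL1A1 and COL3A1 were called lower as well, and the part of fibroblast-type cells in those values was not tested. LUM in both clones and COL3A1 in clone 37 passed the filter only through parental and had to be lower. The part of fibroblast-type cells or of that library in the clone 15 values of COL1A1, COL1A2, COL3A1, COL6A3, COL8A1 and COL12A1 was not tested.

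**Figure D5:**
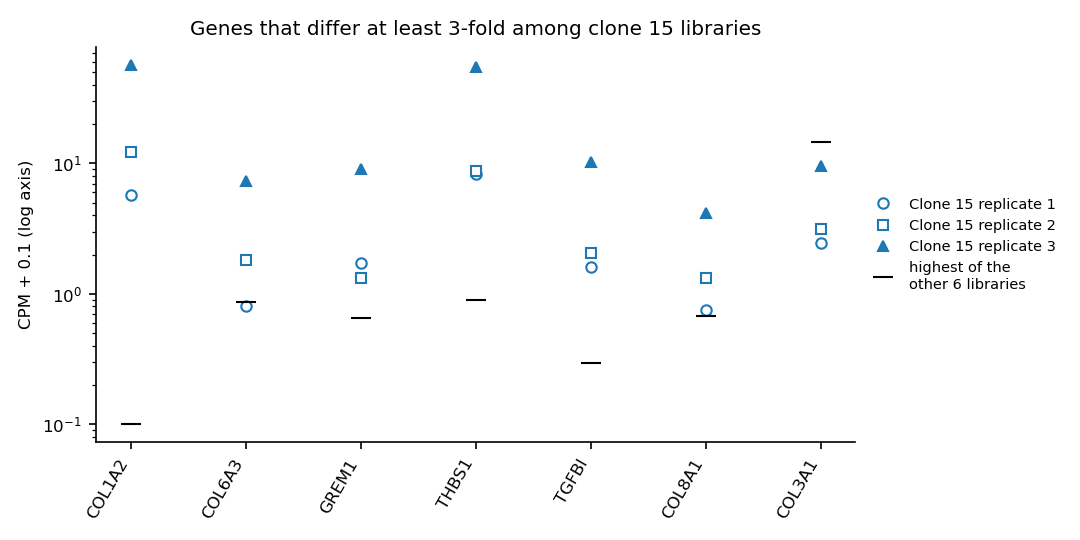
CPM + 0.1 on a log axis (y) of the 4 collagen genes whose clone 15 libraries differ at least 3-fold and of THBS1, TGFBI and GREM1, which also do (x), with 1 symbol per clone 15 replicate and a bar at the highest of the other 6 libraries. Replicate 3 (filled triangles) is the highest clone 15 library for each gene shown; COL1A2 reaches 56.8 CPM there against 0 in every parental and clone 37 library.

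The changes were set beside those of the nearest tested genes on the same chromosome, up to 100 for each member, as a description with no test. Around COL4A5 and COL4A6 the median log2 fold change was -0.49 in clone 37, where these genes had -1.60 and -1.74. Around COL3A1 and COL5A2 it was -0.40 in clone 37, and around COL4A1 and COL4A2 -0.31. In clone 15 it was -0.58 and -0.57 around COL3A1 and COL5A2, and -0.54 around COL14A1, whose own value was -1.07. Around COL5A1 it was 0.21 in clone 37 and 0.29 in clone 15, opposite in sign to the gene itself, and around COL6A1 it was 0.12 and 0.31, also opposite. On chromosome 1 the median in clone 37 was -0.20 around COL11A1 and -0.26 around COL24A1, where these genes had -1.83 and -0.38. For the called members on chromosomes X, 1, 2 and 13 in clone 37 the surrounding median thus had the sign of the gene. It also did for COL11A2 (0.11), COL12A1 (0.01) and COL25A1 (-0.003). The part of the neighbourhood in the values of these members was not tested.

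Collagen chains are hydroxylated and glycosylated in the endoplasmic reticulum, folded with chaperones, trimmed and cross-linked outside the cell. Of 14 hydroxylases and glycosyltransferases tested, 8 were called lower and 4 higher in clone 37, and 6 lower and 4 higher in clone 15. The most changed in clone 37 were COLGALT2, a collagen galactosyltransferase (-1.48), and PLOD2, the telopeptide lysyl hydroxylase (-1.17). In clone 15 they were P4HA1, a prolyl hydroxylase subunit (-1.13), and COLGALT2 (-1.05), and between the clones P3H4 (-0.98) and P3H2 (-0.91). Of 8 folding and export genes, 5 were called lower and 0 higher in clone 37, led by SPARC (-1.02) and the prolyl isomerase FKBP10 (-0.81). In clone 15, 4 were called lower and 2 higher, with FKBP14 at -1.11 and PPIB at 0.49. SERPINH1, the collagen chaperone HSP47 by its protein name, was called higher in clone 15 (0.40) and lower in clone 37 (-0.35), and FKBP10 and SERPINH1 led between the clones (-0.92 and -0.75).

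Of the 6 pathway lists, cross-linking enzymes had the lowest median in either clone, -1.03 in clone 37 and -0.59 in clone 15. Of 6 tested, 5 were called lower and LOXL1 higher in clone 37, led by LOXL4 (-1.85) and LOX (-1.42), both lysyl oxidases. In clone 15, 3 were called lower, led by LOX (-1.47) and LOXL4 (-1.25), and 3 were not called. LOX measured 62.8, 61.0 and 47.1 CPM in parental, 21.9, 21.3 and 19.5 CPM in clone 15, and 22.6, 20.5 and 21.7 CPM in clone 37, so all clone libraries lay below parental. PXDN, the peroxidase that cross-links collagen IV, fell by 1.29 in clone 37 and by 0.85 in clone 15. LOXL1 (0.97) and LOXL2 (-0.53) led between the clones.

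The partners of collagen IV in the basement membrane were mostly lower as well. Of 14 laminin, nidogen and proteoglycan genes tested, 11 were called lower and 1 higher in each clone, with medians of -0.51 in clone 37 and -0.50 in clone 15. LAMA2 and LAMA4, laminin chains of muscle and vessel basement membranes, led in both: -1.84 and -1.78 in clone 37, -1.40 and -1.27 in clone 15. LAMA4 measured 65.4, 65.7 and 64.2 CPM in parental, 30.2, 27.2 and 24.8 CPM in clone 15, and 19.4, 18.7 and 19.8 CPM in clone 37. The gene called higher was LAMC3 (0.68) in clone 37 and AGRN (0.24) in clone 15, and between the clones LAMC3 (1.38) and NID2 (-1.06) led. Of 8 propeptide processing genes, 2 were called lower and 0 higher in clone 37 (ADAMTS14 at -1.45 and PCOLCE2 at -0.64). In clone 15, 3 were called lower and 1 higher (led by ADAMTS14 at -1.23 and TLL1 at 0.62). In both clones ADAMTS14 passed the filter only through parental, so its falls are not independent of the filter. Between the clones ADAMTS2 (0.67) and TLL2 (-0.62) led.

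Of 12 genes of collagen breakdown, 7 were tested, and the list holds both enzymes or uptake receptors and the TIMP genes, which encode inhibitors of the metalloproteinases. In clone 37, 4 were called lower (MMP2, MRC2 and the inhibitors TIMP2 and TIMP3) and 2 higher (MMP14 and the inhibitor TIMP1), led by the gelatinase MMP2 (-1.06) and the collagen uptake receptor MRC2 (-1.01). In clone 15, 2 were called lower, MMP2 (-1.0) and the inhibitor TIMP3 (-0.61), and 2 higher, MRC2 and TIMP1. MRC2 was called in opposite directions, lower in clone 37 and higher in clone 15 (0.38), and MRC2 (-1.39) and MMP14 (0.81) led between the clones. Adjusted p-values of these lists were taken over all genes tested, and the percentages called over all genes given above apply to them.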

How the data were processed

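RNA of 9 HEK293T libraries was depleted of ribosomal RNA and sequenced in pairs, per the labels' protocols. The authors deposited raw counts per gene for each library. STAR 2.7.10a, FastQC 0.11.9 and hg38 are named in the submitters' processing notes. The annotation used for counting is not given in the sources used here. Column 4 of the deposited counts was used, since it held 92.6% to 94.0% of stranded gene counts. Summary entries that name no gene, 40.3% to 49.1% of read pairs, stayed out of library sizes and tests. Multimapping pairs (4.59% to 5.98% in clone 15 and 10.4% to 14.0% in the other libraries) are not counted. Gene symbols and positions came from GENCODE 29 on GRCh38, which matched 58496 of 60683 IDs, and promoter sequences from RefSeq on GRCh38.p14, which held 32 of the 44 members.

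CPM was computed over the summed gene counts. Each pair of groups was fitted on its 6 libraries with edgeR 4.0.16 in R 4.3.3 (filterByExpr, TMM, robust glmQLFit, glmQLFTest). P-values were Benjamini-Hochberg adjusted over all genes tested. The log2 fold change is the fitted one, and its SE is its size over the square root of F. Ratios of 2 genes were compared with exact permutation tests, two-sided. Python 3.11.15, pandas 2.3.3, scipy 1.17.1 and matplotlib 3.10.9 did the rest.

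Members with a mean of at least 1 CPM in a group and a called change of at least 2-fold were given by library. Others at 5 CPM or more were named with values and the rest counted. Of each pathway list, the 2 called genes with the largest change per comparison were named. SERPINH1 in the comparisons with parental, PXDN, and the genes of the clone 15 library spread were named after their values were seen. The members and lists were chosen with earlier results of these data known.

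On simulated counts with 200 changed genes, 87.0%, 86.2% and 84.7% of 2-fold changes were recovered in clone 37 against parental, clone 15 against parental and clone 37 against clone 15, and 71.7%, 56.7% and 62.6% of 1.5-fold changes. False calls made up 9.20%, 5.56% and 7.64% of calls, above the nominal rate in each. Only 200 of 16258 to 17353 genes were changed there, whereas 51.4% to 57.7% of all genes were called in the data. The simulated rates therefore do not describe the calls reported here. The alternatives were RLE factors, DESeq2 1.42.0, no filter, 1 CPM in 3 libraries, unstranded counts, all 9 libraries in one fit, a replicate block, thinning, protein-coding genes only, removal of GC and length trends, and leaving out each library in turn.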

Additional observations from a re-analysis of the deposited data

Results flagged for a closer look

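The direct test of clone 37 against clone 15 is the test of the difference between their changes from parental. It called 19 of the 32 collagen genes tested, and each is listed here for that reason. Fitted log2 fold changes below 0, lower in clone 37, were -4.46 for COL3A1, -3.47 for COL6A6, -1.91 for COL12A1, -1.88 for COL1A1, -1.14 for COL4A6, -0.96 for COL2A1, -0.69 for COL4A5 and -0.26 for COL4A2. Those above 0 were 1.38 for COL23A1, 1.09 for COL4A3, 0.82 for COL11A2, 0.77 for COL7A1, 0.74 for COL14A1, 0.70 for COL26A1, 0.52 for COL6A1, 0.45 for COL19A1, 0.40 for COL9A3, 0.33 for COL18A1 and 0.28 for COL13A1. Only COL2A1 was called in opposite directions against parental. The share of tested members called in this comparison, 59.4%, was near the 57.7% of all genes. COL3A1 and COL6A6 passed the filter only through clone 15 and had to differ. Read length and depth cannot be told apart from clone 15 in these differences.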

How the results depend on the processing

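Of 84 fitted values of single collagen genes followed through the alternatives, 50 kept their call and direction in every one. In at least 1 alternative 12 lost the call, 18 gained it and 7 changed sign. COL6A3, COL8A1, COL9A2, COL19A1 and the pathway genes were named but not followed singly. The count called higher in clone 37 was 2, and 1 with DESeq2, no filter, all 9 libraries or the replicate block, with 1 to 3 when a library was left out. In clone 15 it was 2, with 5 in DESeq2, 6 with unstranded counts, 6 with the replicate block and 1 to 5 when a library was left out. The count lower in clone 37 than in clone 15 was 8, and 5 to 12 when a library was left out. Same-numbered libraries did not deviate together over all genes that passed the filter (correlations -0.16 to 0.02), and the main fit did not pair them. Such a correlation cannot show whether a shared batch touched some genes. With the replicate block as a term, the counts called lower against parental stayed within 1.5 times. Among the members followed singly, COL1A1 (0.97, adjusted p = 0.0132) and COL1A2 were then called in clone 15. COL1A2 and COL5A1 (-0.22, adjusted p = 0.0217) were called between the clones, and COL12A1 was no longer called in clone 37 (0.62). The 6 called higher in clone 15 with this block include members that were not followed singly. In 1 of 9 comparisons of a library with those of another group, the same-numbered library was its best match.

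The sign changes were all of uncalled values. Leaving out 1 library, COL27A1 ran from -0.18 to 0.096 in clone 37 and from -0.23 to 0.0079 in clone 15, COL7A1 from -0.0035 to 0.40 in clone 37, and COL11A2, COL4A3 and COL13A1 in clone 15 from -0.070 to 0.20, from -0.72 to 0.089 and from -0.11 to 0.075. COL5A2 between the clones ran from -0.073 to 0.019. With GC and length trends removed, COL27A1 in clone 37 gave 0.041, COL11A2 in clone 15 -0.011 and COL5A2 between the clones 0.057. COL11A2 in clone 15 gave -0.21 after thinning. COL13A1 in clone 15 gave 0.0023 with the 1 CPM filter, 0.00078 with the replicate block and 0.033 with protein-coding genes, and COL5A2 between the clones gave 0.019 with unstranded counts. Calls were also gained by COL24A1 in clone 15 (-0.38) and COL23A1 in clone 37 (0.42) without parental replicate 2, by COL7A1 in clone 37 without parental replicate 1 (0.40), by COL13A1 in clone 37 with GC and length trends removed (0.29) or without parental replicate 3 (0.33), by COL27A1 between the clones with those trends removed (0.24) and by COL6A6 in clone 15 with unstranded counts (0.73). The cause of these changes was not tested. The 11 untested genes were all under 1 CPM, and for them low level and depth were not told apart.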
